A study of Mus musculus with 12 samples.

Results

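Genes that mark resident dermal fibroblasts were followed in the skin of WT and Thy-1–KO mice given bleomycin or PBS. The set was taken by name and holds 10 genes (Fap, Dpp4, Pi16, Ly6a, Pdgfra, Pdgfrb, Dcn, Lum, Dpt and Mfap5) of the 55453 listed in the count table. All 10 were found in the table, and all 10 were among the 18311 genes that passed a filter on low counts. The mice were of the C57/BL6 strain in 4 groups of 3, WT and KO mice given either PBS or bleomycin (BLM), and the study's methods give females of 8 to 12 weeks for the KO line. Thy-1 is deleted throughout the KO mouse and not in fibroblasts alone, and PBS, the solvent of bleomycin, was the control in both genotypes. Injections were subcutaneous, at the back, and skin RNA was sequenced on day 21. The sample labels give 21 days of bleomycin, whereas the study's methods give daily injections for up to 14 days.

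Fibroblasts of the dermis are of several kinds. Cells near the epidermis (papillary) lie close to hair follicles, cells deeper down (reticular) build thick collagen bundles, and cells in the fascia and around vessels (adventitial, also called universal) carry Pi16, Dpp4 and Ly6a and are held to be a reserve from which other fibroblasts arise. In fibrosis, fibroblasts take on an activated state in which they make collagen and contractile proteins. The 10 genes fall into groups by role. Fap and Dpp4 are related serine proteases of the cell surface that cut after proline. Pi16, a peptidase inhibitor, and Ly6a, which encodes Sca-1, are surface proteins used to sort adventitial cells. Pdgfra and Pdgfrb are the receptors for platelet-derived growth factors, the first typical of fibroblasts and the second shared with pericytes. Dcn and Lum encode decorin and lumican, small leucine-rich proteoglycans that bind collagen fibrils. Dpt (dermatopontin) and Mfap5 (a microfibril glycoprotein) are further proteins of the matrix.

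Several members sit beside a relative, and 1 cannot be counted cleanly. On the GENCODE M21 annotation of GRCm38, Fap (chromosome 2, 62500943 to 62574075, minus strand) and Dpp4 (chromosome 2, 62330073 to 62412231, minus strand) lie 88711 bases apart, with the glucagon gene Gcg as the 1 protein-coding gene between them. Dcn (chromosome 10, 97479609 to 97518143) and Lum (chromosome 10, 97565128 to 97572703) are neighbours on the plus strand, 46984 bases apart, with 0 protein-coding genes between. Pi16 is on chromosome 17 (29317680 to 29330593), Pdgfra on chromosome 5 (75152292 to 75198215), Dpt on chromosome 1 (164796644 to 164824266), Mfap5 on chromosome 6 (122505845 to 122529290), and Ly6a on chromosome 15 (74994877 to 74998031, minus strand). Since the report compares Fap with Dpp4, the coding stretch of 12 codons around the active-site serine (residue 624 in both) is shown, with the bases that differ in capitals:
Fap: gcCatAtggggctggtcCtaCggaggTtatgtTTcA
Dpp4: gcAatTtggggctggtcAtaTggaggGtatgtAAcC
Of these 36 bases, 28 were identical. Over the whole coding sequences (2283 and 2280 bases) the longest identical run was 21 bases. Ly6a is different. Of its transcript words of 50 bases, 19% also occur in Ly6c1, Ly6c2, Ly6i or I830127L07Rik, against at most 4.93% for any other member, and its counts are therefore uncertain. A coding stretch of Ly6a that holds a run of 45 bases identical to Ly6c1 is shown with the differing bases in capitals:
Ly6a: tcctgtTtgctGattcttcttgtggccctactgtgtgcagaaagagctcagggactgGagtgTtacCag
Ly6c1: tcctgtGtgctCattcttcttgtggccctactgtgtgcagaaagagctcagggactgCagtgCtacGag

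Each library held 26473700 to 38890450 counts, and the members had from 94 counts (Pi16 in mouse 145) to 54011 counts (Dcn in mouse 139). Expression is given as CPM, in which counts are scaled by the TMM-normalized library total. A call means that edgeR's quasi-likelihood test over 18311 genes gave an adjusted p (Benjamini-Hochberg) below 0.05. Thy1 was read first as the targeted gene. It stood at 104 to 150 CPM in WT PBS, 231 to 416 in WT BLM, 45.6 to 96.9 in KO mice given PBS and 84.7 to 128 in KO mice given BLM. Within each treatment every KO mouse was below every WT mouse, but transcript counts remained, and neither difference passed the threshold (adjusted p = 0.224 for PBS and 0.112 for BLM by edgeR, and 8.71e-05 for BLM by DESeq2). The labelled tissue was evident in the keratins Krt10 and Krt5, at a mean of 12.17 and 12.14 log2 CPM, and in the collagen gene Col1a1, at 11.99.

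The mice differed in tissue state in ways the groups did not fix. A list of 19 genes of growing hair had a mean of 9.92 to 10.53 log2 CPM in the 3 WT PBS mice and -0.03 to 3.99 in the 3 WT BLM mice, so that hair state and treatment cannot be told apart in WT skin. In KO PBS the list stood at 10.52 in mouse 136 but at -0.61 and 2.28 in mice 137 and 139, and in KO BLM at 9.45 in mouse 141 and 5.66 and 6.69 in the others. The fibroblast genes also set mice apart. Mouse 145 (WT BLM) had the lowest value of its group for 10 of 10 members, and mouse 136 (KO PBS) for 9 of 10.

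Per length of annotated exons, Ly6a, Dpt, Dcn and Lum led. The mean over 12 mice was 152 RPKM for Ly6a (the CPM divided by the annotated exon length in kilobases), 125 for Dpt, 122 for Dcn and 95.2 for Lum. The receptor Pdgfrb followed at 15.9 RPKM, then Pi16 at 14.2, Mfap5 at 11.6, Pdgfra at 7.4, Dpp4 at 6.49 and Fap at 3.67. Neighbours in this order such as Dpt and Dcn, or Pi16 and Mfap5, lay well within the range of each across mice (52.8 to 282 RPKM for Dpt and 28.4 to 276 for Dcn). Fap, the gene of the activation-associated protease, was the lowest of the 10 per length and also in mean CPM (20.8). The exons of all transcripts of a gene were joined for this length, so the order depends partly on the annotation. The length was 5662 bases over 9 transcripts for Fap and 1724 bases over 1 transcript for Dpt. Pi16 varied most, 75-fold between its lowest and highest mouse, and Fap least, 3.33-fold.

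**Figure D1:**
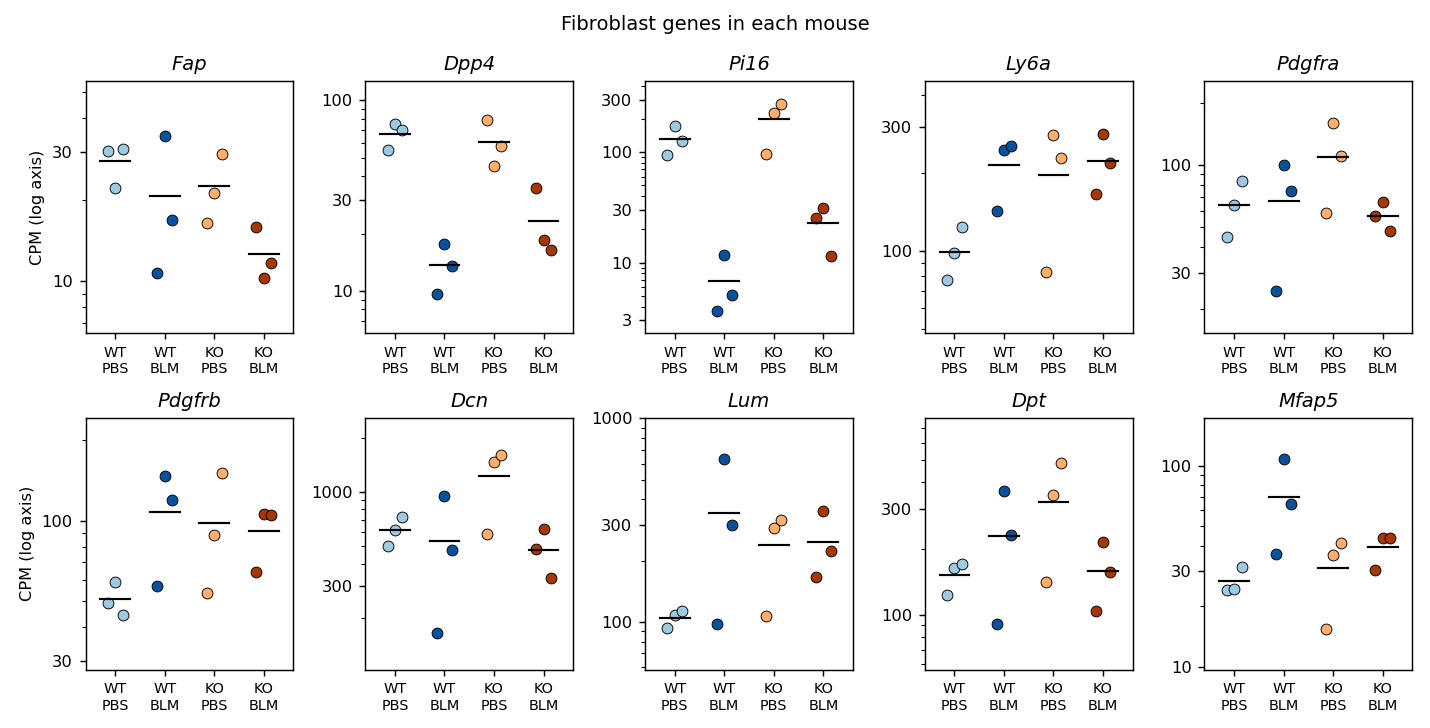
CPM (log axis) of the 10 fibroblast genes in each of the 12 mice; points are mice, in order of mouse number within each group, and bars are group means. Pi16 and Dpp4 are lower in every BLM mouse than in any PBS mouse of either genotype, whereas the other 8 genes overlap between treatments in at least 1 genotype.

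In WT skin, Pi16 and Dpp4 were lower after bleomycin and the matrix genes Lum and Mfap5 were higher. Ly6a, which like them is used for adventitial cells, was not called and differed in the other direction (1.11). Pi16 stood at 94.5, 173 and 127 CPM in the 3 WT PBS mice and at 3.68, 11.6 and 5.09 CPM in the 3 WT BLM mice. The groups were far apart, and the highest BLM value was below the lowest PBS value. Pi16 fell by 4.27 on the log2 scale (SE 0.59, 19.3-fold, adjusted p = 0.00355). Dpp4 stood at 54.8, 75 and 69.6 CPM in WT PBS and at 9.63, 17.7 and 13.5 CPM in WT BLM mice. It fell by 2.29 on the log2 scale (SE 0.34, 4.88-fold, adjusted p = 0.00405). Across both genotypes the highest of the 6 BLM mice was 31.4 CPM for Pi16 and 34.8 CPM for Dpp4, and the lowest of the 6 PBS mice 94.5 and 45.4 CPM. Both WT calls held without each of the 6 WT mice in turn, with a change of -4.9 to -3.98 for Pi16 and -2.52 to -2.09 for Dpp4. In bulk skin, fewer cells of a type and less RNA per cell cannot be told apart, which applies to every value here.

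Lum stood at 93, 108 and 113 CPM in WT PBS mice and at 98, 630 and 299 CPM in WT BLM mice. Mice 146 and 147 were high, whereas mouse 145 was inside the PBS range, so the groups overlapped. The change was 1.71 on the log2 scale (SE 0.60, adjusted p = 0.0484). Mfap5 stood at 24.2, 24.4 and 31.5 CPM in WT PBS and at 36.4, 108 and 64.7 CPM in WT BLM mice, without overlap, and the change was 1.38 (SE 0.42, adjusted p = 0.0303). Of the fits without each WT mouse in turn, the one without mouse 145 kept these 2 calls, and the change ranged from 0.93 to 2.15 for Lum (adjusted p = 0.0184 to 0.213) and from 0.92 to 1.69 for Mfap5 (adjusted p = 0.0186 to 0.108). Lum also missed the threshold with RLE scaling (adjusted p = 0.0504). With the hair list as a covariate none of the 4 calls was kept (Pi16 -4.64, adjusted p = 0.0803, Dpp4 -1.43, adjusted p = 0.151, Lum 1.16, adjusted p = 0.701, Mfap5 0.85, adjusted p = 0.681), in a fit that called 15 genes in all.

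The receptors and the other surface and matrix members did not pass the test in WT skin. Ly6a stood at 77, 97.7 and 123 CPM in WT PBS and 142, 245 and 254 CPM in WT BLM mice. These groups did not overlap, and the difference of 1.11 (SE 0.41) missed the threshold in edgeR (adjusted p = 0.0578) and passed it in DESeq2 (adjusted p = 0.0343) and in edgeR without KO mouse 136 (adjusted p = 0.00843). Pdgfrb stood at 49.4, 58.8 and 44.5 CPM in WT PBS and 56.9, 147 and 119 CPM in WT BLM mice, with a difference of 1.08 (SE 0.41, adjusted p = 0.0619 in edgeR and 0.0382 in DESeq2). Mouse 145 overlapped with the PBS mice, and without it the difference was 1.38 (adjusted p = 0.0328 in edgeR). Pdgfra stood at 44.7, 63.9 and 83.9 CPM in WT PBS and at 24.5, 100 and 75 CPM in WT BLM mice. Its difference was 0.06, with a 95% interval of -1 to 1.11. Fap stood at 30.2, 22.1 and 30.7 CPM in WT PBS and 10.7, 34.2 and 16.8 CPM in WT BLM mice, where mouse 146 was above and the other two below the PBS range. The difference of -0.43 had an interval of -1.27 to 0.42 (adjusted p = 0.396). Dcn stood at 504, 615 and 726 CPM in WT PBS and at 166, 954 and 479 CPM in WT BLM mice, with mouse 145 far below and mouse 146 above the PBS range, and a difference of -0.21 (interval -1.43 to 1.01). Dpt stood at 123, 163 and 171 CPM in WT PBS and at 90.9, 364 and 230 CPM in WT BLM mice, with a difference of 0.59 (interval -0.56 to 1.73). Without mouse 145 the differences were 0.22 for Dcn (adjusted p = 0.737), -0.12 for Fap (adjusted p = 0.807), 0.45 for Pdgfra (adjusted p = 0.391) and 0.96 for Dpt (adjusted p = 0.142). With the hair list as a covariate those of Ly6a and Pdgfrb were -0.01 (adjusted p = 0.998) and 0.55 (adjusted p = 0.83).

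Among all genes tested in WT skin, 19.8% were called higher and 14.1% lower after bleomycin. With 2 members called higher and 2 lower of 10, the share was near that of all genes, and the median over members was 0.32 against 0.02 over all genes. The groups did not overlap for 4 of 10 members, against 57.0% of all genes.

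**Figure D2:**
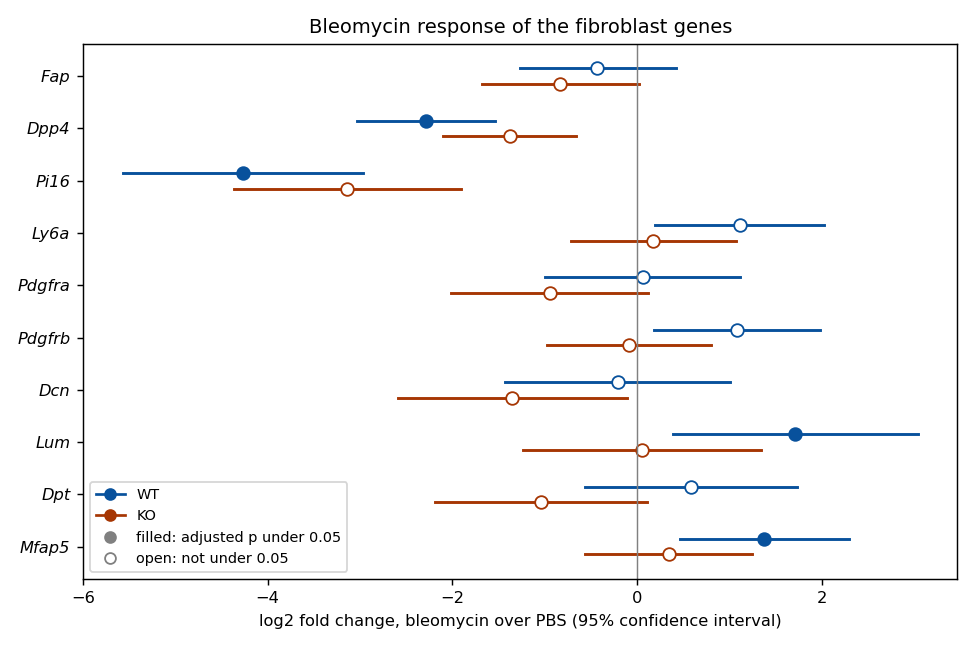
Log2 fold change of bleomycin over PBS for each fibroblast gene in WT (blue) and KO (brown) skin, with the 95% confidence interval of the edgeR fit; filled points passed the adjusted threshold of 0.05. Pi16 and Dpp4 lie below 0 in both genotypes, and Lum and Mfap5 lie above 0 in WT with KO values of 0.05 and 0.35.

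In KO skin 0 of 10 members were called by edgeR, 3 had an unadjusted p under 0.05, and DESeq2 called 2, Pi16 and Dpp4. Among all genes edgeR called 0.251% higher and 0.0546% lower in this comparison. Of the 18311 genes 3665 had an unadjusted p under 0.05, and DESeq2, with its own filter, called 1212 genes. Pi16 stood at 96.8, 229 and 276 CPM in KO PBS and at 25.4, 31.4 and 11.5 CPM in KO BLM mice. The groups were again separate, and the difference was -3.14 (SE 0.55, 8.81-fold, adjusted p = 0.053 in edgeR and 4.73e-07 in DESeq2). Dpp4 stood at 79, 45.4 and 57.4 CPM in KO PBS and at 34.8, 18.6 and 16.4 CPM in KO BLM mice, also without overlap, with a difference of -1.38 (SE 0.33, 2.6-fold, adjusted p = 0.0968 in edgeR and 0.00243 in DESeq2). Both passed in edgeR without mouse 136 (Pi16 -3.47, adjusted p = 0.00853, Dpp4 -1.14, adjusted p = 0.047) and without mouse 141 (Pi16 -3.24, adjusted p = 0.0346, Dpp4 -1.79, adjusted p = 0.0203). These are the 2 KO mice high in the hair list, and without both of them the differences were -3.56 for Pi16 (adjusted p = 0.00993) and -1.55 for Dpp4 (adjusted p = 0.00985). With the hair list as a covariate they were -2.93 (adjusted p = 0.0178) and -1.71 (adjusted p = 0.00575). Among all genes these fits called 2632 without mouse 136, 1162 without mouse 141, 4164 without both and 1635 with the covariate, against 56 with all mice and no covariate.

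In KO skin the groups did not overlap for 3 of 10 members, against 19.3% of all genes, and Fap was the third. It stood at 16.4, 21.2 and 29.5 CPM in KO PBS and at 15.9, 10.3 and 11.7 CPM in KO BLM mice, with a difference of -0.83 (SE 0.38, adjusted p = 0.259). The other 7 members overlapped between treatments. Dcn stood at 587, 1470 and 1610 CPM in KO PBS and at 483, 622 and 334 CPM in KO BLM mice, a difference of -1.35 with an interval of -2.59 to -0.11 and an adjusted p of 0.219. Dpt stood at 141, 347 and 486 CPM in KO PBS and at 104, 213 and 157 CPM in KO BLM mice (difference -1.04, adjusted p = 0.29). Pdgfra stood at 58.3, 159 and 110 CPM in KO PBS and at 56.2, 66.3 and 47.7 CPM in KO BLM mice (difference -0.94, adjusted p = 0.296). In these 3 genes, as in Pi16, mouse 136 held the lowest value of the KO PBS group.

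Lum and Mfap5, which rose in WT skin, gave no call in KO skin. Lum stood at 107, 290 and 318 CPM in KO PBS and at 167, 352 and 223 CPM in KO BLM mice, so that 2 of the KO PBS mice were already near the BLM level. Its difference was 0.05, with an interval of -1.24 to 1.34. Mfap5 stood at 15.5, 35.8 and 41.4 CPM in KO PBS and at 30.3, 43.8 and 43.7 CPM in KO BLM mice, a difference of 0.35 with an interval of -0.56 to 1.25. Ly6a stood at 82.7, 279 and 228 CPM in KO PBS and at 166, 282 and 218 CPM in KO BLM mice (difference 0.17, adjusted p = 0.835). Pdgfrb stood at 53.6, 88.1 and 151 CPM in KO PBS and at 64.1, 106 and 105 CPM in KO BLM mice (difference -0.09, adjusted p = 0.922). Without mouse 136 the differences were -0.19 for Ly6a (adjusted p = 0.678) and -0.3 for Lum (adjusted p = 0.746). The median over the 10 members was -0.89 in KO skin, against -0.01 over all genes.

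The genotypes were then compared within each treatment. In PBS skin 0 of 10 members were called by edgeR and 0 by DESeq2, and 2 had an unadjusted p under 0.05 (Ly6a and Pdgfrb). Over all genes edgeR called 0.0655% and DESeq2 called 755 genes. The groups overlapped for all 10 members, against 18.9% of genes without overlap. Values leaned upward in KO: 8 of 10 differences were above 0, with a median of 0.85, against 0.02 over all genes. This lean was carried by mice 137 and 139, since mouse 136 held the lowest value of the group for 9 of the 10 members. Without mouse 136, edgeR called 3 members higher in KO PBS, Ly6a (1.35, adjusted p = 0.00729), Pdgfrb (1.23, adjusted p = 0.0289) and Dpt (1.45, adjusted p = 0.0371), in a fit that called 6870 genes in all. The 2 mice that remain are those low in the hair list, whereas all 3 WT PBS mice were high in it, so genotype and hair state cannot be told apart there.

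In BLM skin 0 of 10 members were called by edgeR, 2 had an unadjusted p under 0.05 (Pi16 and Dpp4), and DESeq2 called 1 (Pi16). Over all 18311 genes edgeR called 0.0928%, and 3043 had an unadjusted p under 0.05, while DESeq2 called 614 genes. Pi16 averaged 22.7 CPM ± 10.2 (SD, n = 3) in KO BLM and 6.8 CPM ± 4.25 (SD, n = 3) in WT BLM mice. The KO mouse with the lowest value (11.5 CPM) lay just under the highest WT mouse (11.6 CPM). The difference was 1.74 (SE 0.53, adjusted p = 0.235 in edgeR and 0.034 in DESeq2). Dpp4 averaged 23.3 CPM ± 10.1 in KO BLM and 13.6 CPM ± 4.05 in WT BLM mice, a difference of 0.77 (adjusted p = 0.284). Fap averaged 12.6 CPM ± 2.91 in KO BLM and 20.6 CPM ± 12.2 in WT BLM mice, a difference of -0.71 (adjusted p = 0.359). For all 10 members the groups overlapped, against 27.5% of genes without overlap.

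Whether bleomycin acted differently in KO and WT skin was tested directly, as the KO response minus the WT response. It was called for 0 of 10 members by edgeR and 0 by DESeq2, with 1 (Dpt) at an unadjusted p under 0.05. Over all genes it was called for 0% by edgeR, whereas DESeq2 called it for 3279 genes. An unadjusted p under 0.05 was found for 5687 of the 18311 genes. For Pi16 it was 1.13 (interval -0.49 to 2.75, adjusted p = 0.295), and for Dpp4 it was 0.91 (interval -0.1 to 1.91, adjusted p = 0.194). It was below 0 for the other 8 members, from -0.4 for Fap to -1.66 for Lum (adjusted p = 0.192). For Dpt it was -1.62 (interval -3.24 to 0, adjusted p = 0.16). Without mouse 136, 4 members passed with a lower response in KO (Ly6a -1.3, Mfap5 -1.35, Pdgfrb -1.46 and Dpt -1.98), in a fit that called 7470 genes. Without mice 136 and 141 together, 1 did (Ly6a -1.13, adjusted p = 0.0482).

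A ratio of 2 genes within a mouse does not depend on the scaling of libraries, nor on a shift that both genes share. The ratios are of counts without correction for length, so that their change and not their size is of use. The ratio was taken for the 3 related pairs in 4 comparisons each, 12 tests in all. With 3 mice against 3, the exact permutation test (two-sided) cannot give a p under 0.1, which is 0.24 after Benjamini-Hochberg adjustment over the 12, so the separation of the groups is described. The ratio of Dcn to Lum was 5.42, 5.71 and 6.45 in the WT PBS mice and 1.69, 1.51 and 1.6 in the WT BLM mice. In KO PBS mice it was 5.48, 5.07 and 5.06, and in KO BLM mice 2.89, 1.77 and 1.5. The 6 PBS mice thus held a narrow range of 5.06 to 6.45, and all 6 BLM mice of both genotypes were below it, at 1.5 to 2.89. The mean log2 ratio differed by -1.87 in WT and by -1.4 in KO mice (exact p = 0.1 each). Between the genotypes under BLM the difference was 0.3 (exact p = 0.5).

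**Figure D3:**
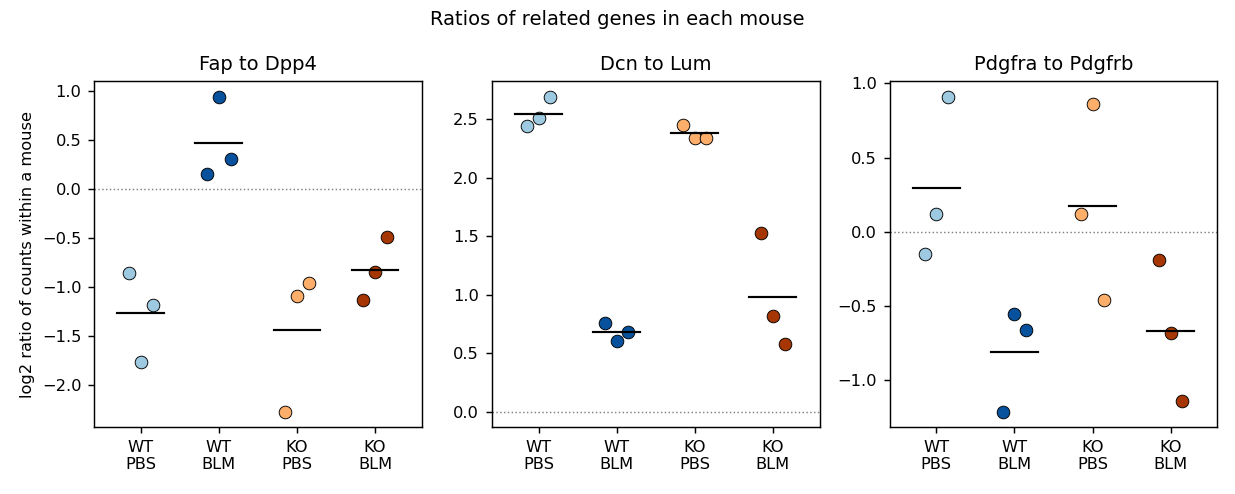
Log2 ratio of 2 related fibroblast genes within each mouse for Fap to Dpp4, Dcn to Lum and Pdgfra to Pdgfrb; points are mice and bars are group means. The ratio of Dcn to Lum lies between 2.34 and 2.69 in the 6 PBS mice and between 0.58 and 1.53 in the 6 BLM mice.

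The ratio of Fap to Dpp4 was 0.551, 0.296 and 0.441 in WT PBS and 1.11, 1.92 and 1.24 in WT BLM mice. Every WT BLM mouse was above every WT PBS mouse. The mean log2 ratio differed by 1.74 (exact p = 0.1). In KO mice it was 0.208, 0.468 and 0.515 under PBS and 0.456, 0.554 and 0.711 under BLM, and the groups overlapped (difference 0.61, exact p = 0.3). Under BLM the ratio was lower in every KO than in every WT mouse (difference -1.3, exact p = 0.1). The ratio of Pdgfra to Pdgfrb was 0.904, 1.09 and 1.88 in WT PBS and 0.432, 0.682 and 0.632 in WT BLM mice (difference -1.11, exact p = 0.1, no overlap). In KO mice it was 1.09, 1.81 and 0.725 under PBS and 0.877, 0.625 and 0.454 under BLM, with overlap (difference -0.84, exact p = 0.2).

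Since hair state moved with treatment in WT skin, the values of Pi16 and Dpp4 were set beside it mouse by mouse. The KO PBS mice 137 and 139, with the hair list at -0.61 and 2.28, had Pi16 at 229 and 276 CPM and Dpp4 at 45.4 and 57.4 CPM. WT BLM mice 145 and 147, with the list at 0.12 and -0.03, had Pi16 at 3.68 and 5.09 CPM and Dpp4 at 9.63 and 13.5 CPM. At the high end, KO BLM mouse 141 (list 9.45) had Pi16 at 25.4 CPM and Dpp4 at 34.8 CPM, and WT PBS mouse 159 (list 9.92) had 94.5 and 54.8 CPM. KO PBS mouse 136 (list 10.52) had Pi16 at 96.8 CPM, the lowest of its group, and Dpp4 at 79 CPM, the highest of all 12 mice. KO BLM mice 143 and 144 (list 5.66 and 6.69) had Pi16 at 31.4 and 11.5 CPM and Dpp4 at 18.6 and 16.4 CPM. WT BLM mouse 146 (list 3.99) had 11.6 and 17.7 CPM. WT PBS mouse 160 (list 10.53) had Pi16 at 173 CPM and Dpp4 at 75 CPM. Within each group, WT and KO, Dpp4 was thus highest in the mouse with the highest hair list. For Pi16 this held in both WT groups (mice 160 and 146) and in neither KO group. The part of hair state in these values was not tested.

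**Figure D4:**
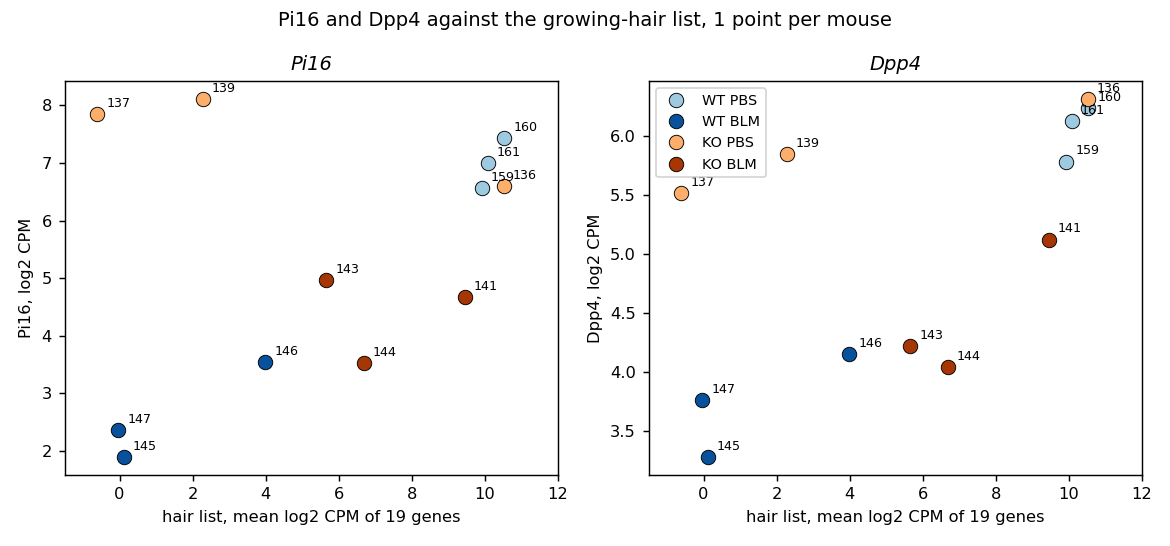
Log2 CPM of Pi16 (left) and Dpp4 (right) against the mean log2 CPM of 19 growing-hair genes, 1 point per mouse with its number, coloured by group. KO PBS mice 137 and 139 are low in hair genes and high in Pi16. KO BLM mouse 141 is high in hair genes with Pi16 at 25.4 CPM. Within their groups Dpp4 is highest in mice 136, 141, 146 and 160, each the highest of its group in hair genes.

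Other cell types also differed between the groups. In WT skin, 7 of 7 T cell markers, 5 of 7 macrophage markers, 7 of 8 skeletal muscle markers and 5 of 8 endothelial markers were called higher after bleomycin. Over all genes the share called higher there was 19.8%. The macrophage list summed to 299 to 670 CPM in WT PBS, 1620 to 2240 in WT BLM, 327 to 1510 in KO mice given PBS and 1080 to 1520 in those given BLM. The skeletal muscle list summed to 4760 to 5380 CPM in WT PBS, 16200 to 33500 in WT BLM, 6130 to 24900 in KO mice given PBS and 9530 to 18200 in those given BLM. The T cell list summed to 17.4 to 19.2 CPM in WT PBS, 57.7 to 82.2 in WT BLM, 16.6 to 51.5 in KO mice given PBS and 54.1 to 102 in those given BLM. The part of these cell types in the values of the members was not tested. For Pdgfrb, which pericytes share, 3 of 8 pericyte markers (Abcc9, Higd1b and Mcam) were called higher in WT BLM and 0 lower, with 6 differences above 0. Higd1b was low, at 0.575 CPM in WT PBS and 1.93 CPM in WT BLM mice. The 2 most abundant markers, Notch3 (187 and 153 CPM) and Cspg4 (89.2 and 88 CPM), were not called. In KO skin edgeR called 0 of 8, with 2 at an unadjusted p under 0.05 and 1 by DESeq2.

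The genes around the members were read from fixed lists, each by its count of calls and its median log2 difference. Over all genes 19.8% were called higher and 14.1% lower in WT BLM, and 0.251% and 0.0546% in KO BLM. In KO skin 3665 of the 18311 genes had an unadjusted p under 0.05, and DESeq2 called 1212 genes. A count near these shares is not particular to its list. Of 15 further markers of universal and adventitial fibroblasts, 4 were called lower in WT BLM and 0 higher, while 8 of the 15 differences were above 0 and the median was 0.28. The 4 were Pcolce2, a procollagen processing enhancer (32.7 to 8.14 CPM, adjusted p = 0.0121), Procr, the protein C receptor (61.6 to 12.1, adjusted p = 0.0177), Clec3b, which encodes tetranectin (102 to 25.1, adjusted p = 0.0469), and Efhd1 (36 to 3.95, adjusted p = 0.0143). The 2 most abundant genes of that list, Gsn (gelsolin) and Cd34, differed by -0.02 each (adjusted p = 0.967 and 0.978). In KO skin edgeR called 0 of the 15, with 8 at an unadjusted p under 0.05 and 5 called lower by DESeq2, and the median was -0.97. Pcolce2 averaged 77.9 CPM in KO PBS mice and 14.4 CPM under BLM (adjusted p = 0.057), and Clec3b 215 and 11.4 CPM (adjusted p = 0.0541), both without overlap. Procr did not share that pattern, at 19.2 CPM in KO PBS and 27.7 CPM in KO BLM mice.

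Among the 14 papillary markers 8 were called lower in WT BLM and 2 higher, Crabp1 (11.6 to 107 CPM) and Entpd1 (18.8 to 76.6 CPM). Of those called lower, Lef1 ranged from 7.78 to 93.4 CPM and Nkd2 from 28.9 to 161 CPM within KO PBS, whereas Lrig1 ranged from 157 to 208 CPM. The part of hair state in these values was also not tested. Apcdd1, a Wnt inhibitor, went from 255 to 159 CPM (adjusted p = 0.0345), and Col18a1 was at 386 and 625 CPM (adjusted p = 0.0688). In the same comparison 7 of 9 dermal papilla markers were called lower and 0 higher, with Prdm1 at 91.3 and 44 CPM (adjusted p = 0.0436) and Lepr at 24.2 and 14.8 CPM (adjusted p = 0.395). Dermal papilla cells belong to the hair follicle. Of 10 reticular and hypodermal markers 2 were called higher (Dlk1 and Mest) and 0 lower. Its most abundant genes, Gpx3 and Tnxb, differed by 0.76 and -0.05 (adjusted p = 0.247 and 0.946). Of 14 markers of activated fibroblasts 11 were called higher and 0 lower, with 12 differences above 0 and a median of 2.23. Lrrc15 (989 to 277 CPM, without overlap) and Tagln (126 to 110 CPM) went the other way and were not called. Col1a1 rose from 1970 to 8350 CPM (adjusted p = 0.0213) and Col3a1 from 2140 to 8100 CPM (adjusted p = 0.0341), while Fap, often counted with this state, did not pass the test. In KO skin edgeR called 3 of these 14 higher (Tagln, Cthrc1 and Timp1) and 0 lower, with 7 at an unadjusted p under 0.05 and 5 called higher by DESeq2. There edgeR called 0 of the papillary, reticular and dermal papilla genes, with 2, 5 and 1 at an unadjusted p under 0.05, and DESeq2 called 1, 3 and 0.

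Relatives of the members were read in the same way, beside shares of 19.8% called higher and 14.1% lower over all genes in WT BLM. Counts such as 3 of 11 proteoglycans and 1 of 5 peptidases were near the share called higher. Of 11 other small leucine-rich proteoglycans 3 were called higher in WT BLM and 0 lower: Bgn (biglycan, 477 to 1640 CPM, adjusted p = 0.00536), Aspn (asporin, 17.4 to 160 CPM, adjusted p = 0.0107) and Podnl1. Prelp was at 84.5 and 153 CPM (adjusted p = 0.0878). In the same comparison Lum was called higher and Dcn was not called. Of the 4 ligands of the PDGF receptors, Pdgfb (22.1 to 58.1 CPM, adjusted p = 0.013) and Pdgfc (4.4 to 28.4 CPM, adjusted p = 0.00638) rose in WT skin, and Pdgfa was at 31.5 and 42.3 CPM (adjusted p = 0.136). Of 9 microfibril genes 3 rose with Mfap5, namely Fbn1 (fibrillin-1, 184 to 453 CPM, adjusted p = 0.0347), Fbn2 (7.53 to 20.9 CPM, adjusted p = 0.0373) and Ltbp2 (12.2 to 84.3 CPM, adjusted p = 0.00477), and 0 fell. Mfap4 was at 110 and 119 CPM (adjusted p = 0.886). Of 5 further prolyl peptidases related to Fap and Dpp4, 1 was called (Prepl, 0.44, adjusted p = 0.0263), and Prep (138 to 82.8 CPM, adjusted p = 0.0694) and Dpp8 (110 to 117 CPM, adjusted p = 0.642) were not. Of 12 other Ly6 family genes 4 were called higher and 0 lower, among them Ly6e (218 to 647 CPM, adjusted p = 0.0127) and Ly6c2 (0.238 to 7.94 CPM, adjusted p = 0.00215). Ly6d, the most abundant of them, was at 326 and 538 CPM (adjusted p = 0.165). Ly6c1, which shares sequence with Ly6a, was at 54.2 and 58.9 CPM (adjusted p = 0.853). In KO skin edgeR called Ly6c2 alone among the genes of these 5 lists (0.859 to 9.46 CPM, adjusted p = 0.0312), while DESeq2 called 4 of the proteoglycans, 0 of the PDGF ligands, 1 of the microfibril genes, 0 of the peptidases and 1 of the Ly6 genes. At an unadjusted p under 0.05 stood 5, 0, 1, 1 and 4 genes of these lists, beside 3665 of all 18311 genes.

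**Figure D5:**
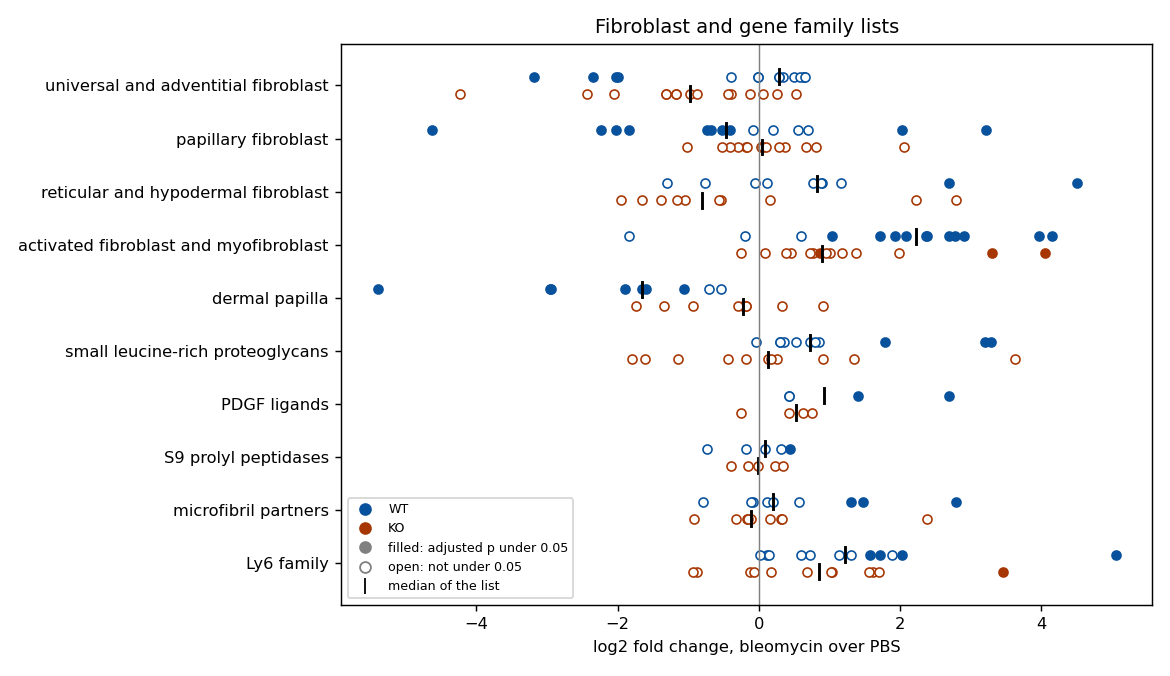
Log2 fold change of bleomycin over PBS for each tested gene of 10 lists, in WT (blue) and KO (brown) skin; filled points passed the adjusted threshold of 0.05 in edgeR and black ticks are list medians. In WT skin the activated fibroblast list has a median of 2.23 and the dermal papilla list one of -1.66, and the universal fibroblast list has 4 called genes, all below 0.

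The patterns of the members over the 12 mice were compared by the root mean square difference of mean-centred log2 CPM, in which smaller is more alike. The closest members were Pdgfra and Dcn (0.317), then Pdgfra and Dpt (0.366) and Pdgfrb and Ly6a (0.367). The farthest were Pi16 and Mfap5 (2.51). Pi16, whose own SD over the mice was 2.17, was nearest to Dpp4 (1.2), whose SD was 1.08. The measure counts the size of changes as well as their pattern, so a gene that varies widely lies far from those that vary less. Of all genes tested, those most like Fap (SD 0.618) were Zfp937 (0.279), Eda (0.309), Greb1l (0.318), Eps8 (0.332) and Lpgat1 (0.333). Scara5 (0.585) and Lvrn (0.671), named after their values were seen, were the nearest to Pi16.

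The sequence upstream of Dpp4 is shown because Dpp4 was called lower in WT skin and its RefSeq promoter window extends beyond the annotated span of the gene. Overlap of the window with transcripts of other genes was not checked. RefSeq windows were held for 4 of the 10 members (Pdgfra, Dpp4, Pi16 and Dpt). Matches to 4 short motifs were counted on both strands in the 250 bases before the start: TGANTCA (AP-1, the dimer that answers stress signals), GGAATG (TEAD), TGTGGT (RUNX) and TATAAA (the TATA box). They occur in 6.75%, 12.6%, 14% and 12.4% of 32851 promoters of that length. The part of the Dpp4 window outside the annotated span of Dpp4 (GRCm38.p6, chr2:62412316-62412481, minus strand, 166 bases, 5′ to 3′) is given with the motif matches in capitals:
Dpp4: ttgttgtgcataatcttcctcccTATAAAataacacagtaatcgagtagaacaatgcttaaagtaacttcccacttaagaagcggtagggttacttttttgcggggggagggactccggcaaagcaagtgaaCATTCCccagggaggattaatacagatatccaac
It holds 1 TATAAA and 1 GGAATG match, the latter on the opposite strand, at 227 and 118 bases before the end of the full 250-base window. The stretch shown stops short of that end, since the RefSeq span of Dpp4 covers the rest. The GENCODE M21 span ends at 62412231, outside the window. Both distances are counted from the end of the window and not from the edge of the RefSeq span. A match is a description of letters and not a measure of binding.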

How the data were processed

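Skin RNA of 12 mice (3 per group) was analysed. The authors prepared stranded mRNA libraries, sequenced read pairs and deposited raw counts per gene, without normalization, in 1 table of 55453 gene symbols with a column per mouse. Per the labels' processing notes the genome build was GRCm38.p6 and MultiQC 1.7 was used. The aligner, counting tool, annotation and use of strand are not given in the sources used here, so overlapping genes may share reads. Library totals ran from 26473700 to 38890450 counts (median 31494965), which leaves the spread between mice (biological coefficient of variation 34.9%) as the main limit on precision.

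Genes were filtered with edgeR's filterByExpr (minimum count 10, minimum total 15), scaled by TMM, and all 12 mice entered 1 quasi-likelihood model of 4 group means (edgeR 4.0.16 in R 4.3.3). Contrasts gave the 4 comparisons and the KO response minus the WT response. P-values were adjusted by Benjamini-Hochberg across 18311 genes and called below 0.05. Log2 CPM used a prior count of 2. The alternatives were DESeq2 1.42.0 (the tool of the study's methods), upper-quartile or RLE scaling, all genes kept, a mean of at least 1 CPM, a prior count of 0.5, the 2 compared groups alone, the mean of the hair list as a covariate and each mouse left out in turn. Leaving out mice 136 and 141 together was chosen after seeing the data. The edgeR fit alone was run on counts simulated with known changes in WT BLM and without differences in tissue state between mice. Within-mouse ratios were compared by exact permutation tests.

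The 10 members, the 21 gene lists and the rule for naming genes were chosen with earlier results of these data known. The text names all members, Thy1, the 2 most abundant genes of each list (lists of other cell types are given as counts), and the 5 genes most like Fap in pattern. Other names, mostly genes called in a list of few calls, were chosen after their values were seen. Mice were treated as replicates from their labels, and each has its own number. Gene positions and exon lengths came from GENCODE M21 by symbol, with 1 match for 98.1% of symbols, promoter sequences from RefSeq, and coding sequences from GENCODE M21 transcripts. Plots were drawn in Python 3.11.15 with matplotlib 3.10.9. The other experiments of the study were not analysed here.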

Additional observations from a re-analysis of the deposited data

How the results depend on the processing

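For bleomycin against PBS in WT skin, 4 members were called. The count was 0 with the hair list as a covariate and 2 to 6 without 1 WT or KO mouse at a time, and it was 3 with RLE normalization and 6 with DESeq2. Over all genes it was 6222, against 7662 with DESeq2 and 15 with the covariate. In KO skin it was 0, against 2 with DESeq2, 1 (Pi16) without a filter on low counts, 2 with the hair covariate, 2 without mice 136 and 141, and 0 to 2 without 1 mouse at a time. Over all genes 56 were called in KO skin, against 1212 with DESeq2, 176 without the filter, 1635 with the hair covariate and 4164 without mice 136 and 141. Between genotypes under PBS it was 0, also with DESeq2, against 3 without mice 136 and 141 and 0 to 3 without 1 mouse at a time (3 without mouse 136). The count over all genes went from 12 to 755 with DESeq2, 7648 without both mice and 6870 without mouse 136. Under BLM the count of members was 0, against 1 with DESeq2, with 17 and 614 over all genes. For the difference of the responses it was 0, also with DESeq2, against 1 without mice 136 and 141 and 0 to 4 without 1 mouse at a time (4 without mouse 136). Over all genes that difference was called for 0, against 3279 with DESeq2, 7218 without both mice and 7470 without mouse 136. The cause was not tested. In WT skin Pi16, Dpp4, Lum and Mfap5 kept their direction in these fits, whereas Ly6a, called by DESeq2, was at -0.01 with the hair covariate. The study's methods describe the controls as littermates, but the labels used here give a number for each mouse and no litter. No paired analysis was therefore possible. With 3 mice per group the intervals given were wide, and any difference inside an interval remains compatible with the data. No statement on a member without a call means that it stayed the same.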

Other observations

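Markers of further cell types, not described above, were read from the same kind of fixed lists, by calls in edgeR for bleomycin against PBS. In WT skin all 5 melanocyte genes and 9 of 19 growing-hair genes were called lower and 0 higher. Over all genes 14.1% were called lower and 19.8% higher. Of the 5 smooth muscle genes, 1 (Smtn) was called lower and 0 higher. Of the 7 keratinocyte genes 1 (Krt1) was called higher, and 0 of the 7 adipocyte genes was called, with 0 at an unadjusted p under 0.05 and 0 by DESeq2. In KO skin edgeR called 4 of the 189 genes in the 21 lists, in 2 lists, against 30 in 13 lists by DESeq2 and 52 at an unadjusted p under 0.05. Over all genes there edgeR called 56 of 18311, with 3665 at an unadjusted p under 0.05, and DESeq2 called 1212. In WT skin the counts in the lists were 91 by edgeR and 98 by DESeq2.

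The adventitial marker Clec3b had 118, 263 and 263 CPM in the KO PBS mice and 15.9, 10.8 and 7.56 CPM in the KO BLM mice, beside 72.6, 117 and 116 CPM in the WT PBS and 3.8, 49 and 22.4 CPM in the WT BLM mice. The KO response minus the WT response was -2.21 and did not pass the test (adjusted p = 0.151 in edgeR). Clec3b was singled out here after its values were seen.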
